A study of Mus musculus with 2 samples.

Results

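Glucose is broken down to pyruvate by the enzymes of glycolysis, and pyruvate is either reduced to lactate by lactate dehydrogenase or passed to the mitochondria, an entry that the Pdk kinases restrain. When oxygen falls, the prolyl hydroxylases of the Egln family stop marking the HIF alpha subunits for destruction by the Vhl ligase, and HIF paired with Arnt binds a short core, ACGTG or GCGTG, near its target genes. Many glycolytic genes and genes of matrix assembly, acid balance and mitophagy are known targets of this pathway. The genes described here are 47 genes of glycolysis and of the hypoxia response, chosen by name from these 2 functions and found on the array through their gene symbols or accessions, out of 19505 genes that could be named. They fall into 27 glycolysis genes (transporters, enzymes and regulatory kinases) and 20 genes of the HIF pathway and its responsive genes. All 47 had at least 1 probe, 80 probes in all, and 46 were bright enough to be tested. Car12, a carbonic anhydrase, was not tested, since it was not well above background in either culture at E14.5.

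RNA was compared on 2 two-colour Agilent arrays. Each array paired thymic stromal cells of C57BL/6 fetuses in reaggregation thymus organ culture (RTOC, Cy5), in which dispersed cells are packed into a pellet on a membrane, with the same kind of cells spread in a dish (2D culture, Cy3), both for 72 h. One array held E14.5 fetal stroma after 8 days of organ culture and the other held E15.5 stroma after 9 days. All 4 samples came from lobes treated with 1.35 mM deoxyguanosine, which depletes lymphoid cells, so both cultures carry that treatment and no freshly isolated stroma is included. Each array served as 1 replicate of the RTOC to 2D ratio, and whether the samples came from separate litters or pools is not given. No array had the dyes swapped, so a dye effect is not separated from the culture. Stage, array, days of organ culture and cell preparation cannot be told apart, so E14.5 and E15.5 below each stand for 1 array. Of 13506 named genes tested, 28.1% passed limma's test at an adjusted p under 0.05, with 15.4% higher and 12.7% lower in RTOC, and their median log2 ratio was -0.01 at E14.5 and 0.02 at E15.5. Between 53.1% and 60.9% of probes were well above background in each sample.

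The label of thymic stroma was checked against markers. All 10 thymic epithelial markers were well above background in every sample, among them Foxn1, the transcription factor of thymic epithelium, and 5 were higher and 2 lower in RTOC. The lower genes were Krt14 and Cdh1. The summed signal of these 10 genes was 311469 (E14.5) and 639592 (E15.5) in 2D culture and 975459 and 971671 in RTOC. Much of this sum came from a few bright genes, such as Ccl25 (269900) and Krt8 (262200) in RTOC at E14.5. All 9 fibroblast markers were also above background everywhere, and 3 were higher and 5 lower in RTOC. Their summed signal was 463793 (E14.5) and 393906 (E15.5) in 2D culture and 281948 and 301904 in RTOC. Of 6 endothelial genes 5 were higher in RTOC and none lower, with a summed signal of 1484 (E14.5) and 572 (E15.5) in 2D culture against 6449 and 9987 in RTOC. Pecam1, Cdh5, Tek and Tie1 stayed near background in both 2D samples. Kdr (1043 at E14.5 and 211 at E15.5) and Emcn (326 and 201) were well above it there. Kdr was the gene not called, with log2 ratios of 0.03 and 2.84. Of 7 myeloid genes 4 were higher in RTOC, with a summed signal of 67921 and 56634 in 2D culture against 167187 and 216534 in RTOC. Of 6 contractile genes such as Acta2 and Tagln 5 were lower in RTOC, and their summed signal was 667886 and 563146 in 2D culture against 74620 and 47452 in RTOC. Among thymocyte genes, 4 of 7 could be tested and 1 was higher. Of 6 proliferation genes 1, Mki67, was higher. These marker levels moved with the culture, and their part in the results below was not tested. In such bulk RNA, fewer cells of a type and less RNA per cell cannot be told apart.

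Glycolysis genes were mostly lower in RTOC than in 2D culture, whereas the hypoxia genes went both ways, as did all tested genes. Of the 46 tested genes 24 passed the test, 4 higher and 20 lower in RTOC, a share of 52.2% beside 28.1% of all tested genes. The 27 glycolysis genes gave 2 higher and 15 lower (63.0%), and their median log2 ratio was -1.06 at E14.5 and -0.91 at E15.5. The 19 tested hypoxia genes gave 2 higher and 5 lower (36.8%, beside 28.1% of all tested genes). Their median was -0.52 at E14.5 and 0.06 at E15.5, so its sign differed between the arrays, as was known when the genes were chosen. The E15.5 median was close to 0 and turned negative with no filter on dim probes (-0.03), with a stricter filter (-0.03) and with the median over probes (-0.12). Both medians of the glycolysis genes lay below the medians of all tested genes on the same arrays. At least 2-fold between the cultures were 25 of the 46 genes at E14.5, beside 34% of all tested genes, and 19 genes at E15.5, beside 27.8%. The calls rest on the filter that kept probes above background: with no filter limma called none of the members, although 6 higher and 22 lower had an unadjusted p under 0.05, and an unpaired fit of the 4 samples called 3 higher (Ldhb, Epas1 and Bnip3l) and 5 lower (Slc16a1, Hk1, Pfkp, Eno1 and P4ha2). Of all probes called, 52.9% were higher in RTOC, a share that rose to 65.1% with processed signals centred on the median and to 76.4% with normexp and median centring.

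**Figure D1:**
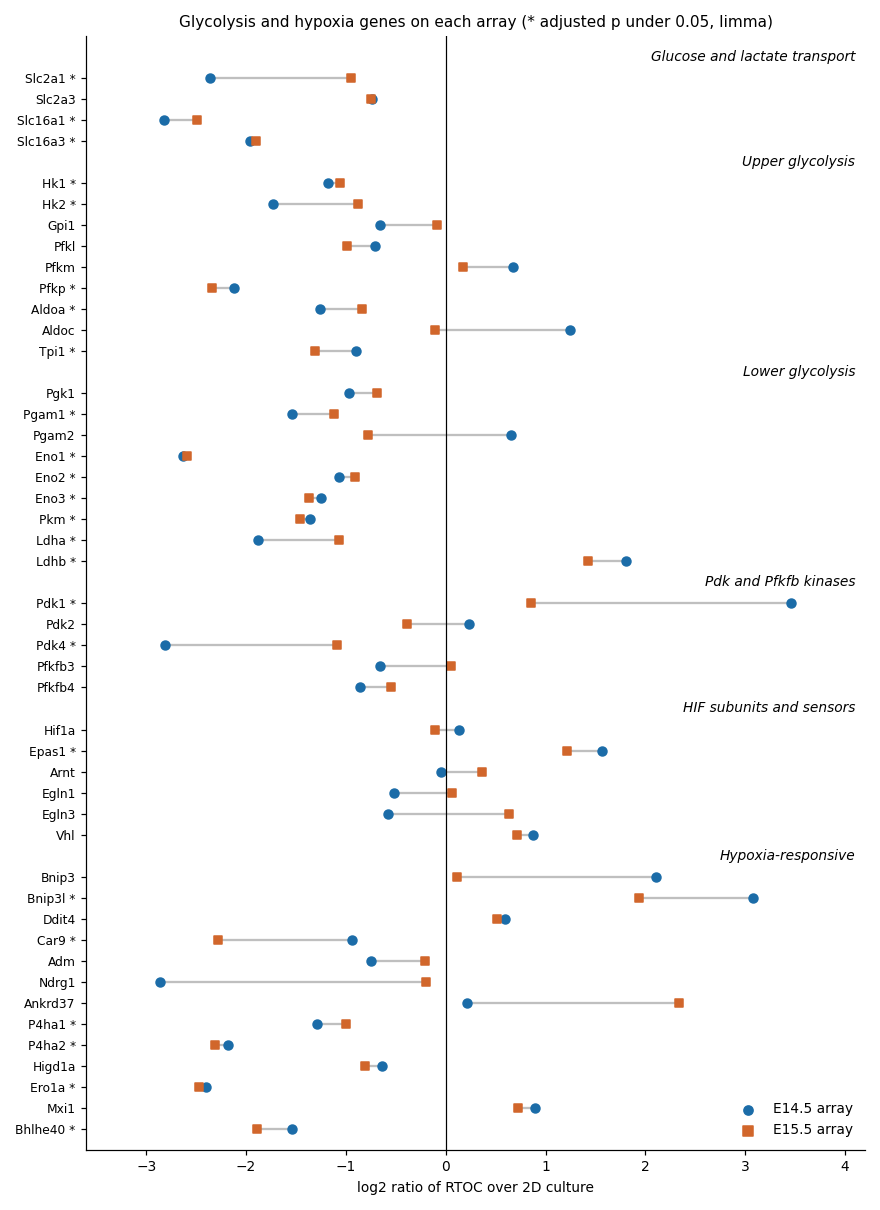
The log2 ratio of RTOC over 2D culture (horizontal axis) of each of the 46 tested genes, grouped by role, with a circle for the E14.5 array, a square for the E15.5 array and a grey bar between them; an asterisk marks an adjusted p under 0.05 from limma. Transporters and most glycolytic enzymes lie left of 0 on both arrays, and long grey bars mark genes such as Pdk1, Bnip3, Ndrg1 and Ankrd37 whose ratios differed between the arrays.

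The promoters of a few genes are shown first, with the core bound by HIF marked. The sequence itself was not used to choose the genes. They were chosen by functions that hold many known HIF targets, so a high share with a core is no independent result. Sequences are RefSeq windows of the assembly GRCm38.p6, here the 250 bases before a transcript start, given 5′ to 3′ in the direction of transcription. Capitals mark the core ACGTG or GCGTG, read on either strand (so CACGT and CACGC as well), with overlapping matches joined. Slc16a3 and Ldha carry lactate out of the cell and make it, and both were lower in RTOC. Ldhb favours the reverse reaction and was higher. P4ha2, a hypoxia-responsive gene, was lower. Bnip3 and Ankrd37, 2 others of that group, did not pass the test and are shown because their ratios differed between the arrays.
Slc16a3, chr11:120948817-120949066, plus strand: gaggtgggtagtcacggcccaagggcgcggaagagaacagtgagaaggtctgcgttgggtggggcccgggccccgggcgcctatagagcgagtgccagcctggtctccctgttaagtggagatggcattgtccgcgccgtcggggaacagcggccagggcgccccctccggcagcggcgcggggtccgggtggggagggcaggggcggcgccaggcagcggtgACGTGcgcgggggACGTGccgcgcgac
Ldha, chr7:46845554-46845803, plus strand: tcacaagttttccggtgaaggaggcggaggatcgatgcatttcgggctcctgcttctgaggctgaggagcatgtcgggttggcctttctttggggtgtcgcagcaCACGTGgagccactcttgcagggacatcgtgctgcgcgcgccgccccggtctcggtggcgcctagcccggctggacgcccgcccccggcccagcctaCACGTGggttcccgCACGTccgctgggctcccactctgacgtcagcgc
Ldhb, chr6:142507958-142508207, minus strand: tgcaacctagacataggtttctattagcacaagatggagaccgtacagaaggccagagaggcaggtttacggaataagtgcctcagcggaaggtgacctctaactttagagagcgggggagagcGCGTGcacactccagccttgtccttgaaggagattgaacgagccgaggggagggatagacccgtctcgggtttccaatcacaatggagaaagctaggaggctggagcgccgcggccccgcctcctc
P4ha2, chr11:54100674-54100923, plus strand: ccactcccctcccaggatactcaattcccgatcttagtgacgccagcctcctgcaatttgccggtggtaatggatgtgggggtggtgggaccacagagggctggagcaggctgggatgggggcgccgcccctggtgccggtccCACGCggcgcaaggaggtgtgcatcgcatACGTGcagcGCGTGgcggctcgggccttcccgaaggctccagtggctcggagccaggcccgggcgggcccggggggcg
Bnip3, chr7:138909507-138909756, minus strand: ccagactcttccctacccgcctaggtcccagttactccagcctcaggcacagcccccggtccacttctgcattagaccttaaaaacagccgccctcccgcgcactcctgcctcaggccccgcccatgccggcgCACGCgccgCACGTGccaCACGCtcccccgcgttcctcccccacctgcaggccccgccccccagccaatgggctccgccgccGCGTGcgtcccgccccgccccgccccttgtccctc
Ankrd37, chr8:45999851-46000100, minus strand: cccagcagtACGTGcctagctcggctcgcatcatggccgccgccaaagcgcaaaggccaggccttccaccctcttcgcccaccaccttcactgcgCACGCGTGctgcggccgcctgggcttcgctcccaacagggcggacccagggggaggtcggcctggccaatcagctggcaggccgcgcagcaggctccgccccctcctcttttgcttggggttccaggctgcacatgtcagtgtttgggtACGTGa

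Within these stretches Bnip3 held 4 cores, Ldha, P4ha2 and Ankrd37 held 3 each, Slc16a3 held 2 and Ldhb held 1. A second annotated start of Ldha held 1. Of the 47 genes 42 had a window in the table, and Slc2a3, Epas1, Bnip3l, Ndrg1 and Bhlhe40 had none. Counted over the whole window, 250 bases before to 50 after the start, 36 of the 42 genes (85.7%) held at least 1 core and 25 (59.5%) held several. The same was true of 65.3% and 32.7% of tested genes and of 46.7% and 19.2% of all genes with a window, and 43.8% of all windows held a core. A core was found in 17 of 19 genes lower in RTOC, in both higher genes and in 17 of 20 genes that did not pass the test. The share with a core was 89.5% among the lower genes and 85.0% among those that did not pass. A match to these letters is a description of the sequence and not a site of binding.

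Export of lactate and import of glucose were represented by 4 transporters, and 3 of them were lower in RTOC (75%, beside 28.1% of all tested genes called). Slc16a1, the lactate and pyruvate carrier MCT1, had a quantile-normalized signal (the unit of all signals below) of 3648 in 2D culture and 516 in RTOC at E14.5, and of 2568 and 457 at E15.5. Both RTOC samples lay far below both 2D samples. The mean log2 ratio was -2.66 ± 0.23 (SD, n = 2 arrays; SE 0.26, limma adjusted p = 0.00282), a 6.31-fold difference, and all 3 of its probes passed the test in the same direction. Normexp with loess gave a smaller mean log2 ratio of -1.91, which still passed. Slc16a3, the lactate exporter MCT4, went from 2318 to 598 at E14.5 and from 16790 to 4511 at E15.5. Here the arrays stood apart within each culture, so that the RTOC sample of E15.5 was brighter than the 2D sample of E14.5, while the ratio was nearly the same, -1.96 and -1.90 (mean -1.93 ± 0.04, adjusted p = 0.00555 from limma). Slc2a1, the basal glucose transporter GLUT1, fell from 39940 to 7757 at E14.5 and from 35470 to 18340 at E15.5, with log2 ratios of -2.36 and -0.95 (mean -1.66 ± 0.999, limma adjusted p = 0.0307). Its 2D signals were alike on both arrays, and the difference between the arrays lay in RTOC. Slc2a3, the high-affinity glucose transporter GLUT3, was dim, with signals of 142 to 274 in all samples, log2 ratios of -0.74 and -0.75 and an adjusted p of 0.0761 from limma. With normexp background correction and loess its ratios were -0.15 on both arrays. With that setting the mean ratio of Slc2a1 stayed at -1.66, but its adjusted p rose to 0.0648 (limma).

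In upper glycolysis, from hexokinase to triose phosphate isomerase, 5 of 9 genes were lower and none was higher. The share called was 55.6%, beside 28.1% of all tested genes. Pfkp, the platelet type of phosphofructokinase, showed the largest difference, with signals of 1977 in 2D culture and 455 in RTOC at E14.5 and of 3726 and 734 at E15.5. The RTOC samples were below both 2D samples, and the mean log2 ratio was -2.23 ± 0.16 (SD, n = 2 arrays; limma adjusted p = 0.00394). With normexp and loess the mean was -1.58 and still passed. A second probe of Pfkp was also lower, at -2.15 and -1.56, but another gave -0.86 and 0.08 and did not pass the test. The other phosphofructokinases did not pass the test: Pfkl, the liver type, had log2 ratios of -0.71 and -0.99 (adjusted p = 0.058), and Pfkm, the muscle type, had 0.68 and 0.18 (adjusted p = 0.28), both from limma. Hk2, the inducible hexokinase, was lower at -1.73 and -0.88, and Hk1, the widely expressed hexokinase, at -1.18 and -1.06, with all 4 of its tested probes called. Aldoa, the main aldolase, was lower at -1.26 and -0.84 and Tpi1, triose phosphate isomerase, at -0.90 and -1.31. With normexp and median centring the calls of Hk1, Hk2 and Aldoa were lost, with a mean of -0.40 for Aldoa. Gpi1, glucose phosphate isomerase, had ratios of -0.66 and -0.09 and did not pass the test.

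Aldoc, the brain type of aldolase, differed from Aldoa. It had signals of 100 in 2D culture and 236 in RTOC at E14.5 and of 908 and 842 at E15.5. The 2 cultures of E15.5 were thus alike and brighter than both cultures of E14.5, and the log2 ratios were 1.24 and -0.11, with no call (adjusted p = 0.305 from limma).

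In lower glycolysis, from phosphoglycerate kinase to lactate dehydrogenase, 6 of 9 genes were lower and 1 was higher. The share called was 77.8%, beside 28.1% of all tested genes. Eno1, the main enolase, had signals of 1872 in 2D culture and 303 in RTOC at E14.5 and of 3067 and 510 at E15.5. Both RTOC samples were below both 2D samples by a similar factor, and the mean log2 ratio was -2.61 ± 0.03 (SD, n = 2 arrays; limma adjusted p = 0.00267). It was -1.73 with normexp and loess, which still passed. Eno1 had only 1 probe, which was dim for a main enzyme. In 2D culture at E14.5 it lay below Eno3 (4228) and far below Pgam1 (63190). How well this probe reports the main Eno1 transcript was not tested. Eno2 and Eno3, the neuronal and muscle enolases, were lower by less, with -1.06 and -0.91 for Eno2 and -1.25 and -1.37 for Eno3. The call of Eno2 was lost with normexp and loess, with normexp and median centring and with no quantile step. A second probe of Eno2, at -1.19 and -0.58, did not pass (limma adjusted p = 0.0671). Pkm, pyruvate kinase of muscle type, was lower at -1.36 and -1.46 with both probes called, and Pgam1, phosphoglycerate mutase, at -1.54 and -1.12, a call lost with normexp and median centring. Pgk1, phosphoglycerate kinase, a gene often used as a marker of HIF activity, had -0.97 and -0.69 and just missed the threshold (adjusted p = 0.0623 from limma). Several of these genes have near-identical processed copies in the genome, so signal from a copy cannot be told apart from that of the gene.

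The lactate dehydrogenase subunits moved in opposite directions. Ldha, the subunit that favours lactate, had signals of 131600 in 2D culture and 35820 in RTOC at E14.5 and of 139100 and 66320 at E15.5. The RTOC samples lay below both 2D samples, with log2 ratios of -1.88 and -1.07 (mean -1.47 ± 0.57, limma adjusted p = 0.021), and a second probe gave -1.69 and -1.31. The call of Ldha was lost with normexp and median centring (-0.80, adjusted p = 0.205) and in the unpaired fit. Ldhb, the subunit that favours pyruvate, rose from 6618 to 23190 at E14.5 and from 10420 to 27960 at E15.5. Its RTOC samples were both above its 2D samples, and the mean log2 ratio was 1.62 ± 0.27 (SD, n = 2 arrays; SE 0.26, limma adjusted p = 0.0106), a 3.07-fold difference. Pgam2, the muscle mutase, was higher in RTOC at E14.5 (signals of 257 in 2D culture and 403 in RTOC) and lower at E15.5 (357 and 208). Its log2 ratios were 0.65 and -0.78, and no difference was called (mean -0.07 ± 1.01, adjusted p = 0.914 from limma).

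**Figure D2:**
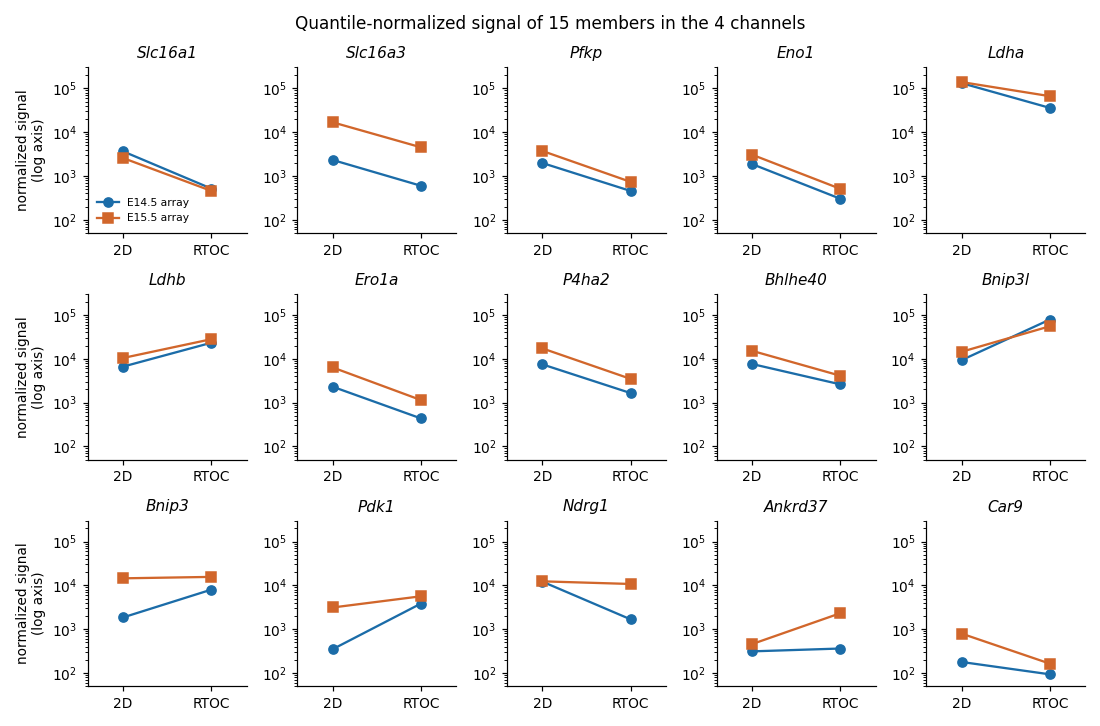
Quantile-normalized signal on a log axis in 2D culture and RTOC for 15 genes, with circles for the E14.5 array and squares for the E15.5 array and a line joining the samples of 1 array. Slc16a1, Pfkp, Eno1, Ero1a and P4ha2 fall along nearly parallel lines, Ldhb and Bnip3l rise on both arrays, and for Bnip3, Pdk1, Ndrg1 and Ankrd37 the lines have different slopes.

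The kinases that steer glycolysis and pyruvate entry gave no common direction. Pdk1, a HIF target that inhibits pyruvate dehydrogenase, had signals of 349 in 2D culture and 3839 in RTOC at E14.5 and of 3127 and 5633 at E15.5. The E14.5 sample of 2D culture was far below the other 3, so the log2 ratios were 3.46 and 0.85, and the mean of 2.15 ± 1.84 (SD, n = 2 arrays) passed the test narrowly (limma adjusted p = 0.0496). A second probe, at 1.69 and 0.27, did not pass (adjusted p = 0.116), and the call was also lost when outlier spots were kept, with trend and robust fitting, with the median over probes and with normexp background correction. Pdk4, the starvation-induced kinase of the same family, ran the other way, from 3746 to 533 at E14.5 and from 796 to 374 at E15.5. Both ratios were negative, -2.81 and -1.09, although the 2D sample of E15.5 was much dimmer than that of E14.5 (mean -1.95 ± 1.22, limma adjusted p = 0.0277). With normexp and loess the call of Pdk4 was lost, at a mean of -1.28. Pdk2 was dim in all samples, with log2 ratios of 0.23 and -0.39. Pfkfb3 and Pfkfb4 make the activator of phosphofructokinase, and their ratios were -0.66 and 0.05 for Pfkfb3 and -0.86 and -0.55 for Pfkfb4, neither called.

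Among HIF subunits and oxygen sensors 1 of 6 genes passed the test, or 16.7%, beside 28.1% of all tested genes. Hif1a, the main HIF alpha subunit, had signals of 4150 in 2D culture and 4564 in RTOC at E14.5 and of 5866 and 5429 at E15.5. The 2 cultures were thus within a narrow range on each array, with log2 ratios of 0.14 and -0.11. HIF1 alpha is controlled mainly through its protein, which the arrays do not measure. Epas1, the gene of HIF2 alpha with strong expression in endothelium, was called higher in RTOC (adjusted p = 0.0163 from limma), but it stayed near background in both 2D samples, with signals of 50.2 and 45.0 against 149 and 104 in RTOC. It was therefore at least 1.18-fold higher in RTOC, and the call was lost with normexp and loess. Epas1 moved together with the endothelial genes, whose levels are given above, and their part in its difference was not tested. Arnt, the beta subunit, had ratios of -0.04 and 0.37, with a range among its 4 probes from -0.64 to 1.69 at E14.5 and no call for any of them.

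Vhl, the ligase component that degrades hydroxylated HIF, had signals of 990 in 2D culture and 1820 in RTOC at E14.5 and of 1073 and 1756 at E15.5. It was higher in RTOC on both arrays, with log2 ratios of 0.88 and 0.71, but missed the threshold (adjusted p = 0.0667 from limma). Egln1, the main prolyl hydroxylase, had -0.52 and 0.06. Egln3, a prolyl hydroxylase that is itself a HIF target, was lower in RTOC at E14.5, at 2142 in 2D culture and 1436 in RTOC, and higher at E15.5, at 1109 and 1721. Its log2 ratios were -0.58 and 0.63 (mean 0.03 ± 0.86, limma adjusted p = 0.96).

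Of the 13 tested hypoxia-responsive genes 5 were lower and 1 higher, or 46.2%, beside 28.1% of all tested genes. The lower genes included P4ha1 and P4ha2, subunits of collagen prolyl hydroxylase, and Ero1a, which forms disulphide bonds in the endoplasmic reticulum. Ero1a had signals of 2299 in 2D culture and 435 in RTOC at E14.5 and of 6332 and 1141 at E15.5. It was lower in RTOC by nearly the same factor on each array, averaging -2.44 ± 0.05 on the log2 scale (SD, n = 2 arrays; limma adjusted p = 0.00308), and its second probe gave -2.25 and -2.16. Normexp with loess gave a mean of -1.78, which still passed. P4ha2, a subunit of collagen prolyl 4-hydroxylase, went from 7452 to 1648 at E14.5 and from 17260 to 3476 at E15.5. Its RTOC samples lay below both 2D samples, with a mean log2 ratio of -2.24 ± 0.10 (limma adjusted p = 0.00379). A second P4ha2 probe, too dim to be tested, gave -0.07 and -0.03. P4ha1, another catalytic subunit, was lower at -1.29 and -0.999, a call lost with normexp and median centring. Its second probe gave -2.25 and -1.42 and also passed (limma adjusted p = 0.0116). Of the 6 contractile markers given above 5 were lower as well, while the fibroblast markers went both ways, with 3 higher and 5 lower. The part of these markers in the difference of the collagen hydroxylases was not tested.

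Bhlhe40, a transcriptional repressor of the circadian and hypoxia response, had signals of 7601 in 2D culture and 2608 in RTOC at E14.5 and of 15200 and 4107 at E15.5. Both RTOC samples were below both 2D samples (mean log2 ratio -1.72 ± 0.24, limma adjusted p = 0.00859). Car9, the carbonic anhydrase widely used as a hypoxia marker, was dim, at 178 in 2D culture and 93.1 in RTOC at E14.5 and at 791 and 163 at E15.5. The 2D sample of E15.5 was the brightest, and the others lay between 93.1 and 178. Its log2 ratios were -0.94 and -2.28 (mean -1.61 ± 0.95, limma adjusted p = 0.0307), and normexp with loess reduced them to -0.15 and -0.87 and removed the call.

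Bnip3l, the mitophagy receptor NIX, had the largest mean rise over the 2 arrays, though Pdk1 had a higher ratio at E14.5 and Ankrd37 at E15.5. It had signals of 9321 in 2D culture and 78570 in RTOC at E14.5 and of 14450 and 55270 at E15.5. Both RTOC samples were well above both 2D samples, averaging 2.51 ± 0.81 on the log2 scale (SD, n = 2 arrays; SE 0.35, limma adjusted p = 0.00672), a 5.68-fold difference, and its second probe gave 2.66 and 1.65. Bnip3, the related mitophagy receptor, had signals of 1854 in 2D culture and 7986 in RTOC at E14.5 but of 14480 and 15610 at E15.5. It was higher in RTOC on the first array and level on the second, with log2 ratios of 2.11 and 0.11 and no call (adjusted p = 0.146 from limma).

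Ndrg1 and Ankrd37 differed between the arrays in RTOC. Ndrg1, a stress-responsive gene often induced by low oxygen, had signals of 12170 and 12360 in 2D culture at E14.5 and at E15.5, but of 1677 and 10760 in RTOC. Only the RTOC sample of E14.5 stood apart, so the log2 ratios were -2.86 and -0.20 (adjusted p = 0.119 from limma). Ankrd37, a HIF target, had signals of 311 and 456 in 2D culture and of 362 and 2308 in RTOC. For this gene the RTOC sample of E15.5 stood apart, with ratios of 0.22 and 2.34 (adjusted p = 0.119 from limma). The remaining genes of the group were not called in the reported fit. Ddit4, an inhibitor of mTORC1, had 0.59 and 0.52, and Mxi1, an antagonist of Myc, had 0.89 and 0.72. Higd1a, a mitochondrial protein, had -0.63 and -0.81, and Adm, adrenomedullin, had -0.75 and -0.21. With normexp and loess Ddit4 and Mxi1 passed as higher (limma adjusted p = 0.0386 and 0.0427) and Higd1a as lower (limma adjusted p = 0.0456). Ddit4 and Mxi1 also passed with normexp and median centring. A second probe of Higd1a gave 0.03 and 0.57.

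The log2 ratios of 11 of the 46 genes were at least 1 apart between the arrays, or 23.9%, beside 13.7% of all tested genes. These were Slc2a1, Aldoc, Pgam2, Pdk1, Pdk4, Egln3, Bnip3, Bnip3l, Car9, Ndrg1 and Ankrd37. Ratios of opposite sign were found for 8 genes (17.4%), beside 20.3% of all tested genes. Only Pgam2 and Egln3 passed 0.5 in opposite directions on both arrays, beside 1.71% of all tested genes. With normexp and loess neither did so, at 0.38 and -0.24 for Pgam2 and -0.44 and 0.48 for Egln3. With 1 array for each stage these differences have no replicate check.

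**Figure D3:**
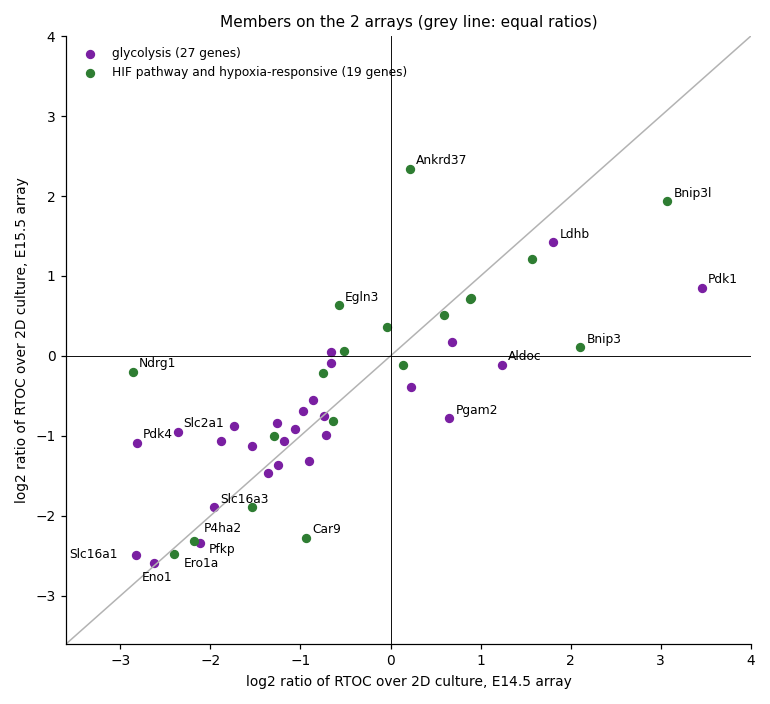
The log2 ratio of RTOC over 2D culture at E14.5 (horizontal axis) and the E15.5 array (vertical axis) for 27 glycolysis genes and 19 hypoxia genes, with a grey line where the ratios are equal. Slc16a1, Eno1, Ero1a, P4ha2, Pfkp and Slc16a3 lie near the line at the lower left, and Pdk1, Bnip3, Ndrg1, Ankrd37 and Car9 lie far from it.

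The same culture was then compared between the arrays, since a ratio does not show which of its samples differed. The difference of E15.5 over E14.5 stroma on the log2 scale had a median of 0.46 in 2D culture and of 0.70 in RTOC over the 46 genes, beside 0.02 and 0.05 over all tested genes. The level was higher at E15.5 for 36 of 46 genes in 2D culture and for 36 of 46 in RTOC (78.3% in each), beside 51.3% and 55.3% of all tested genes. In 2D culture 9 genes (19.6%) were at least 2-fold higher at E15.5, beside 7.87% of all tested genes, and 1 gene, Pdk4, was at least 2-fold lower, beside 7.03%. In RTOC 11 genes (23.9%) were at least 2-fold higher, beside 2.61% of all tested genes, and none was at least 2-fold lower, beside 3.98%. After normexp, loess and Aquantile the 11 genes became 6 (13%), beside 0.548% of all tested genes. These are single samples with no replicate check, so no test was made.

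A set of 6 genes was over 2-fold higher at E15.5 in both cultures, of which 3 (Slc16a3, Pfkl and Tpi1) remained so after normexp, loess and Aquantile. The share of all tested genes that did so in both cultures was not counted. It cannot exceed the share found for RTOC, 2.61%, or 0.548% after normexp, loess and Aquantile. Slc16a3 differed on the log2 scale by 2.86 in 2D culture and 2.92 in RTOC, Pfkl by 2.01 and 1.73, Aldoc by 3.19 and 1.84, Tpi1 by 1.58 and 1.17, Ero1a by 1.46 and 1.39 and P4ha2 by 1.21 and 1.08. For Slc16a3, Pfkl, Ero1a and P4ha2 the 2 cultures thus shifted by a similar amount, and their ratio of RTOC over 2D was close on the 2 arrays. Pdk1, Bnip3 and Car9 differed mainly in 2D culture, by 3.16, 2.96 and 2.15 there and by 0.55, 0.97 and 0.81 in RTOC. Slc2a1, Ndrg1 and Ankrd37 differed mainly in RTOC, by 1.24, 2.68 and 2.67 there and by -0.17, 0.02 and 0.55 in 2D culture. Egln1 was higher at E15.5 in both cultures, by 1.31 in RTOC and by 0.73 in 2D culture. The medians of the 46 genes stayed above 0 with 2 other scalings of the samples, at 0.47 and 0.41 in 2D culture and 0.64 and 0.50 in RTOC.

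**Figure D4:**
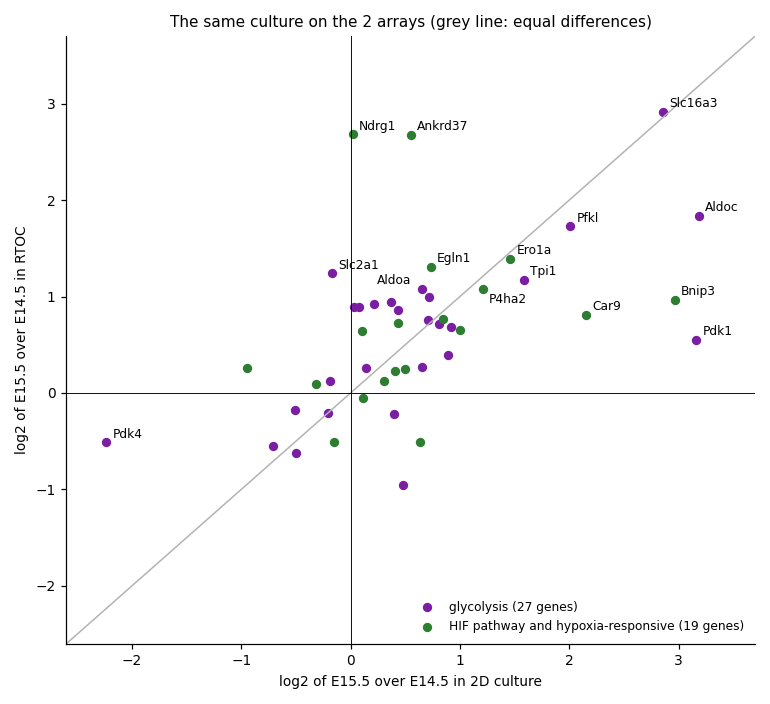
The log2 difference of the E15.5 over the E14.5 sample in 2D culture (horizontal axis) and in RTOC (vertical axis) for the 46 genes, with a grey line where they are equal and names for genes that differed at least 2-fold in either. Most genes lie above and right of 0; Slc16a3 and Pfkl lie near the line, Ndrg1 and Ankrd37 at the top, and Pdk1 and Bnip3 at the right.

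Other genes of these pathways were counted in the same fit. Of 23 further glycolytic isoenzymes, transporters and regulators 16 were tested, 2 were higher and 4 lower, or 37.5%, beside 28.1% of all tested genes. Slc2a4, the insulin-responsive glucose transporter GLUT4, had log2 ratios of 2.81 and 3.25 (limma adjusted p = 0.00233), and Slc16a7, the carrier MCT2, had 1.05 and 1.32. Tigar, a fructose bisphosphatase, was at least 1.29-fold lower, as it was not well above background in RTOC, and Slc2a6 was lower at -1.51 and -0.92. Of 14 genes of gluconeogenesis and glycogen 10 were tested and 30.0% were called. Pygl, liver glycogen phosphorylase, was higher at 3.03 and 1.49 and Fbp1, fructose bisphosphatase, was at least 1.14-fold higher, while Gys1, glycogen synthase, was lower at -1.52 and -1.78. None of 7 tested genes of the pentose phosphate pathway passed limma's test, and 2 had an unadjusted p under 0.05.

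Of 25 tested genes of pyruvate entry and the citric acid cycle 3 were higher and 2 lower, or 20.0%, beside 28.1% of all tested genes. Mdh1, the cytosolic malate dehydrogenase, was higher at 2.30 and 1.49, and Mpc1, a subunit of the mitochondrial pyruvate carrier, at 1.43 and 1.51. Idh3a, a subunit of isocitrate dehydrogenase, was lower at -1.63 and -0.81, and Dlat, a subunit of pyruvate dehydrogenase, at -0.80 and -1.06. Of 29 further tested genes of the HIF pathway 1 was higher and 9 lower, or 34.5%, beside 28.1% of all tested genes. Arnt2, a second beta subunit, was the higher gene at 1.43 and 1.11. Edn1, endothelin 1, was at least 3.07-fold lower, as it was not well above background in RTOC. It also responds to other stimuli than oxygen. Vegfa, the vascular growth factor, had -0.54 and 0.19 and was not called (adjusted p = 0.675 from limma).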

How the data were processed

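Complementary RNA amplified from total RNA of 4 samples was labelled and hybridized to 2 two-colour whole mouse genome arrays on 1 slide. Scans were read by the authors with Feature Extraction (version 11.5.1.1 per the labels, 9.1.3.1 per the file headers). The deposited files hold each spot's mean and background intensity, a processed intensity (background subtracted, detrended and dye normalized within the array) and a log10 ratio of Cy5 over Cy3. The deposited series table holds the same log10 ratio, equal within rounding to that of the processed intensities, with no step between arrays, although the methods describe quantile normalization among all arrays. Flags of each spot (score 0 or 1) were used as deposited.

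Control spots and outlier spots (5 and 1) were left out, the processed intensities of the 4 channels were quantile normalized, and log2 of Cy5 over Cy3 was averaged over spots of a probe. Signals in the text are these normalized intensities. Tests covered the 23685 of 41174 probes flagged well above background in 1 or both channels of each array, with limma 3.58.1 in R 4.3.3 (lmFit with an intercept, eBayes, two-sided, Benjamini-Hochberg over all tested probes, threshold 0.05). Since only 1 residual degree of freedom remains, limma borrows the spread from all probes, and on simulated data the share of false calls was above the nominal rate. A gene was represented by its brightest tested probe. Of the probes 22951 were named through an accession, 6659 through a symbol and 3109 through an older symbol in RefSeq GRCm38.p6; 8455 kept the name in the files and were not counted as genes. A gene dim in 1 culture on both arrays is given as at least N-fold changed, from signals after normexp, loess and Aquantile set against the lowest signal well above background. Precision is limited by 2 arrays; repeated spots (at least 5 a probe) differed by a median SD of 0.07 and 0.06 (log2).

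The genes and lists were chosen with earlier results of these data known. Every member is named; full statistics are given for the called members with the largest differences (at most 10 in each direction) and for those of opposite sign past 0.5. In the other lists the 2 highest and 2 lowest called genes are named, except 1 that is not reported here. Lists are described by counts beside the share of all tested genes, with no test over a list. Alternatives were normexp (offset 50) with loess or median centring, processed intensities centred with no quantile step, the deposited log10 ratios, no filter or a stricter filter, outlier spots kept, each array alone, no replicate block, robust fitting with a trend, the median over probes and the methods' t-test. The comparison of a culture between arrays, with 2 other scalings, was added after the data were seen. Each array pairs its cultures by hybridization. Gapdh, Rpia and Pdp2 had no probe with that name and were not analysed here.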

Additional observations from a re-analysis of the deposited data

Results flagged for a closer look

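Pgam2, the muscle phosphoglycerate mutase, moved in opposite directions on the arrays: its log2 ratio (RTOC to 2D) was 0.65 at E14.5 and -0.78 at E15.5. Egln3, a HIF prolyl hydroxylase, moved the other way, with -0.58 at E14.5 and 0.63 at E15.5. Each was singled out because the only pair of samples of one stage rose while that of the other fell. With normexp and loess both genes kept these signs, but neither passed 0.5 on both arrays (0.38 and -0.24 for Pgam2, -0.44 and 0.48 for Egln3). No test of this difference between stages was made.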

How the results depend on the processing

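Every member that passed the test (24 of 24) kept its direction in each alternative that gave it a value. The same held for 37 of the 46 tested members, and Epas1 had no value under the stricter filter. Robust fitting with a trend, no replicate block and the methods' t-test used the same ratios, so the direction could not change there. Which members passed, and how many, depended on the setting. With no filter on dim probes limma called 0 probes higher and 0 lower (3609 and 3211 in the reported fit), with 5120 and 5546 at an unadjusted p under 0.05, and 0 members higher and 0 lower. The methods' t-test called 0 and 0 probes, and 0 and 0 members, after Benjamini-Hochberg adjustment, and 1645 and 1894 probes with 1 and 11 members unadjusted. With no replicate block, that is with the 4 samples unpaired, 2220 probes were higher and 1813 lower, and the members called lower fell from 20 to 5. Normexp with loess called 2008 and 1701 probes and gave glycolysis medians of -0.94 (E14.5) and -0.67 (E15.5). Normexp with median centring, which moved the median of all tested genes on the E15.5 array to 0.25, called 2219 and 685 probes and 10 members lower, with glycolysis medians of -0.78 and -0.19 and an E14.5 hypoxia median of -0.088. Processed signals centred with no quantile step called 7 members higher and gave an E15.5 glycolysis median of -0.71, with a median of all tested genes of 0.25 on that array. With each array alone the glycolysis median ran from -1.06 to -0.91 and the hypoxia median from -0.52 to 0.061. The E15.5 hypoxia median fell below 0 with the stricter filter (-0.03), with no filter (-0.03) and with the median over probes (-0.12). In RTOC, the glycolysis median of E15.5 over E14.5 was 0.44 after normexp, loess and Aquantile in place of 0.72. The cause of these shifts was not tested. Dim members such as Slc2a3, Car9, Epas1, Pdk2 and Aldoc are limited by their signal over background.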
